A study of Homo sapiens with 4 samples.

Results

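Long noncoding RNAs that stay in the nucleus or that carry small nucleolar RNAs (snoRNAs) in their introns were measured in NGP, an established human neuroblastoma cell line. The 10 genes MALAT1, NEAT1, MEG3, H19, KCNQ1OT1, GAS5, SNHG1, SNHG5, SNHG8 and ZFAS1 were taken by symbol from the 25693 human gene rows of the count table, and 0 of the 10 were absent from it. Cells of both groups were serum-starved to bring them to the same point of the cell cycle. They then received Nutlin-3, which keeps MDM2 from binding p53, or the solvent ethanol for 24 h, and RNA was captured on the ddSeq droplet device with a kit that reads the 3' ends of polyadenylated RNA. The labels name no genotype beyond the cell line, and each treatment had 2 libraries, with ERCC spike-in RNA diluted 1000-fold in one and 10000-fold in the other. The table has 250 columns per treatment, each taken as a cell barcode, and no column name separates the libraries, so each treatment was 1 pool without replicates and no difference has a test.

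MALAT1 and NEAT1 are kept in the nucleus, where MALAT1 gathers at nuclear speckles, the stores of splicing factors, and NEAT1 is the scaffold on which paraspeckles are built. MEG3, H19 and KCNQ1OT1 are imprinted, which means that they are transcribed from the chromosome of only the mother (MEG3, H19) or only the father (KCNQ1OT1). The snoRNA hosts are transcribed to release snoRNAs, guides for the chemical modification of ribosomal RNA, from their introns. Many hosts begin with a tract of pyrimidines, as genes of the translation machinery do, and their spliced exons are often removed by nonsense-mediated decay while they are being translated.

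The human counts came to 1301232 in the Nutlin-3 pool and 1342134 in the ethanol pool, with 4007 and 2989 ERCC counts. Column totals ran from 253 to 13501 with Nutlin-3 and from 306 to 13502 with ethanol. In each treatment 113 columns held over 4000 counts (large columns) and together 89.2% and 88.7% of the counts, and the other 137 were small. Of the 250 column names of a pool, 219 also occurred in the other pool. CDKN1A, the p53 target that stops the cell cycle, had 188 counts with Nutlin-3 and 70 with ethanol, and MDM2, another p53 target, had 504 and 315. All 12 neuroblastoma markers, such as HAND2 and MYCN, passed the filter on low counts, and their summed levels were 2733 and 2676 CPM (counts scaled to a common total of human counts) with Nutlin-3 and ethanol. Of 16 markers of other cell types, 8 were measured, and no row was found for the other 8, among them PTPRC, PECAM1 and HBB. The 8 measured markers summed to 96.1 CPM with Nutlin-3 and 59.6 CPM with ethanol, with LYZ at 49 and 24 counts and COL1A1 at 47 and 29 the most abundant, and the part of this difference in the results was not tested.

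The starts of the snoRNA hosts are shown because terminal oligopyrimidine genes, a class that includes many hosts, are named for a pyrimidine tract there. The first 30 bases of 1 transcript per host are given 5' to 3' from GENCODE release 29 on GRCh38, with the unbroken run of C and T at the start in capitals. The transcript is the one nearest to the RefSeq start, or, for GAS5, the start shared by the most annotated transcripts.
GAS5-210, chr1:173867960-173867989, minus strand: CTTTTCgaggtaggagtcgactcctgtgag
SNHG1-209, chr11:62855856-62855885, minus strand: CTCatttttctactgctcgtggtaagtggc
SNHG5-202, chr6:85678704-85678733, minus strand: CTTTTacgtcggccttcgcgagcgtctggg
SNHG8-205, chr4:118278758-118278787, plus strand: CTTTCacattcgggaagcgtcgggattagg
ZFAS1-201, chr20:49278642-49278671, plus strand: CTTTCgcgtctgcggtgcccggagtgtggt

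All 5 starts open with C. The run is 6 bases long in GAS5, 5 in SNHG5, SNHG8 and ZFAS1, and only 3 in SNHG1, a length that 11.5% of all annotated transcripts reach. Of the 25 annotated SNHG1 transcripts, 4 begin with a run of at least 4 bases. Among all 206694 annotated transcripts 7.03% begin with a run of C and T of at least 4 bases, and 16.8% of 58676 genes have such a transcript.

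The start of MEG3 is shown because MEG3 had the largest difference between the pools among the 10 genes. The promoter window of RefSeq on GRCh38.p14, chr14:100825858-100826157, plus strand, runs from 250 bases before the start to 50 after it, and the capitals mark a cAMP response element, TGACGTCA, which reads the same on both strands and ends 42 bases before the start.
MEG3 promoter: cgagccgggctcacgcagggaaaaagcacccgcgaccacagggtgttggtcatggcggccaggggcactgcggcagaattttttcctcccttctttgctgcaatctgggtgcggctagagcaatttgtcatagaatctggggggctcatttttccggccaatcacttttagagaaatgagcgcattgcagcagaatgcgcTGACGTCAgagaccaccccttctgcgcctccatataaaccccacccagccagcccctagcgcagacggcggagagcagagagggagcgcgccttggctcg

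All 3 promoter windows listed for MEG3 held TGACGTCA, against 649 of 35116 promoter windows (1.85%). None of the 3 held the decamer of the p53 response element, searched by its consensus on both strands, which occurred in 2329 windows (6.63%) and, among the 8 members with a window, in that of ZFAS1. These matches describe the letters of the windows and no binding was measured.

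MALAT1 is shown near its 3' end because the kit captures polyadenylated RNA, while MALAT1 is known to end without a poly(A) tail of the usual kind. The stretch covers bases 8312 to 8374 of the 8708 bases of transcript MALAT1-202 in GENCODE release 29, counted from 1 at the 5' end, with an encoded run of 13 A in capitals.
MALAT1-202: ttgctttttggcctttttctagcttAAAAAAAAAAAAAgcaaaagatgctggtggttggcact

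Runs of at least 10 A were also found in the longest annotated transcripts of KCNQ1OT1 (17 runs), NEAT1 (5 runs) and MEG3 (2 runs). H19 and the 5 snoRNA hosts had 0. Whether counts arose at such runs was not tested, since the table holds no positions.

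Levels were compared between genes per kilobase of merged exon (CPM per kb), using all annotated isoforms on GRCh38. This scale lowers long genes when only 3' ends are read. Per kilobase, SNHG8, host of SNORA24, was the highest of the 10 with 130 CPM per kb in ethanol (95% counting interval 111 to 152) and 152 in Nutlin-3 (130 to 175). Its mean CPM per kb over the pools exceeded that of 98.6% of genes past the filter on low counts. Without division by length the order was different. MALAT1 was then the highest of the 10 in ethanol with 251 CPM, and SNHG8 had 120 CPM. The other hosts followed, with ZFAS1 at 60.8 CPM per kb in ethanol, SNHG1 at 58.1, GAS5 at 48.4 and SNHG5 at 45.4, and each of these overlapped its neighbour in this order within counting error. MALAT1 had 28.4 CPM per kb in ethanol and H19 25.5, again with overlapping intervals. NEAT1 had 9.36, MEG3 5.00 and KCNQ1OT1 0.788, and these 3 stood apart from each other and from H19. In Nutlin-3 the lower end of the order was the same, with KCNQ1OT1 at 0.839, MEG3 at 8.01 (7.03 to 9.09) and NEAT1 at 10.7 (9.59 to 12.0), while SNHG1 at 51.6 stood below SNHG5 at 55.1 and GAS5 at 59.1 with overlapping intervals. ZFAS1 had 73.7 CPM per kb in Nutlin-3.

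**Figure D1:**
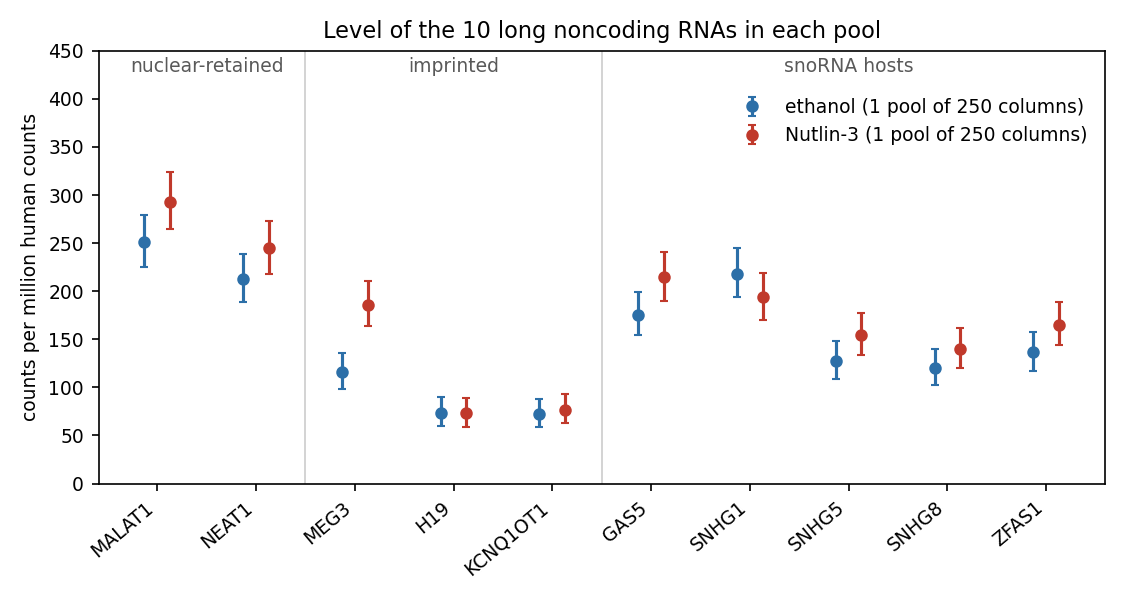
Level of each long noncoding RNA (vertical axis, CPM, from 0) in the ethanol pool (blue) and the Nutlin-3 pool (red), each of 250 columns, with genes ordered by role and bars giving the 95% exact Poisson interval of the summed counts. The intervals of the pools are apart for MEG3 and overlap for the other 9 genes.

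MEG3 was the only one of the 10 whose level differed by at least 1.41-fold (0.5 on the log2 scale) between the pools. That makes 1 of 10 raised and 0 of 10 lowered, where 0.972% of the 8844 genes with at least 50 CPM were raised and 1.01% lowered, and 3.6% and 1.8% of the 333 long noncoding genes at that level. At the smaller size of 0.25 on the log2 scale, 4 of 10 (MEG3, GAS5, SNHG5 and ZFAS1) were raised and 0 lowered, where 6.5% of genes with at least 50 CPM were raised and 6.98% lowered. The direction of the 10 as a group depended on the scaling. After scaling by human counts, 8 of 10 log2 fold changes (Nutlin-3 relative to ethanol) were above 0. With ERCC counts taken as the library size, 1 of 10, MEG3, was above 0. The ERCC total of a pool also depends on how its columns divide between the 1000-fold and 10000-fold dilutions, which column names do not show. The part of this in all values on the ERCC scale was not tested. ERCC scaling lowered the log2 fold change of every gene by the same amount. The median of all genes moved to -0.47 and that of the 10 genes from 0.22 to -0.25. The distance between these medians is the same on both scales by construction. The median of all genes with at least 50 CPM was -0.01 on the human scale, with 95% of them between -0.37 and 0.37, and that of the long noncoding genes was 0.05, with 59.8% above 0. Together the 10 genes held 0.174% of human counts with Nutlin-3 (exact binomial interval 0.167 to 0.181) and 0.150% with ethanol (0.144 to 0.157).

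**Figure D2:**
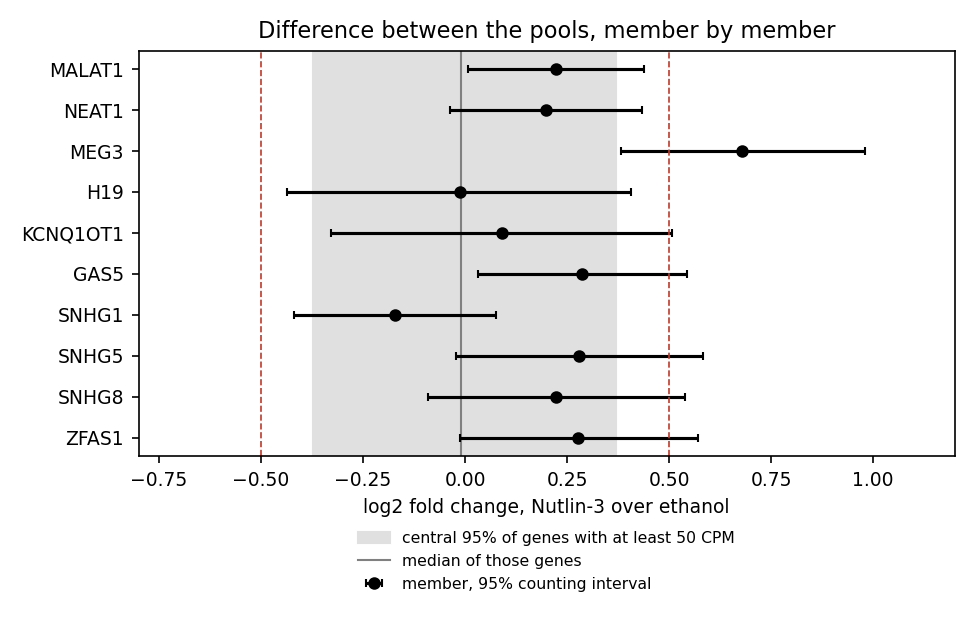
Log2 fold change between the pools, Nutlin-3 relative to ethanol (horizontal axis), for each long noncoding RNA after scaling by human counts, with 95% counting intervals as bars, the central 95% of the 8844 genes with at least 50 CPM as the grey band, their median as the grey line, and the size used for a call, 0.5 in either direction, as red dashed lines. Only MEG3, at 0.68, lies past a dashed line, and SNHG1 and H19 lie below 0.

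MALAT1 (ENSG00000251562, chr11:65497688-65506516, plus strand, GRCh38) had 381 counts in the Nutlin-3 pool and 337 in the ethanol pool, or 293 and 251 CPM. The Nutlin-3 pool was higher by 0.22 on the log2 scale (0.01 to 0.44), and the intervals of the levels overlapped. NEAT1 (ENSG00000245532, chr11:65422774-65445540, plus strand), known as a transcriptional target of p53, had 318 and 286 counts. Its log2 fold change was 0.20 on the human scale, with an interval from -0.04 to 0.43 that holds 0. The genes lie 52148 bases apart on the same strand, and both were higher in the Nutlin-3 pool on the human scale and lower on the ERCC scale, at -0.25 and -0.27. Together they held 0.0537% of human counts with Nutlin-3 (0.0498 to 0.0579) and 0.0464% with ethanol (0.0428 to 0.0502).

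The proteins that share their nuclear bodies were measured alongside. Of 18 paraspeckle proteins, all of which passed the filter on low counts, 1 was raised and 0 were lowered, with a median of -0.04, where 9.47% of all 14830 genes past the filter were raised and 7.5% lowered. The raised gene was MATR3, an RNA-binding protein of the nuclear matrix, with 18 and 9 counts, named after its value was seen. PSPC1, a core paraspeckle protein, had 136 counts with Nutlin-3 and 119 with ethanol, a log2 fold change of 0.24 (-0.13 to 0.61). NONO, its partner, had 228 and 220 counts. SMARCA4, the ATPase of a chromatin remodeller, was lower at 195 and 246 counts, a log2 fold change of -0.29 (-0.57 to -0.01), and EWSR1, an RNA-binding protein, had 159 and 180 counts. Of 17 nuclear speckle proteins past the filter, all with at least 50 CPM, 0 were raised and 0 lowered. Of the paraspeckle proteins 17 were at that level, with 0 raised and 0 lowered. Among all genes with at least 50 CPM 0.972% were raised and 1.01% lowered. Of the speckle proteins 13 were below 0, with a median of -0.07, where 47.2% of genes with at least 50 CPM were above 0. The splicing factor SRSF3 had 210 counts with Nutlin-3 and 273 with ethanol, or -0.33 on the log2 scale (-0.60 to -0.07). SRSF2, of the same family, had 281 and 344 counts, while CLK1, a kinase of splicing factors, had 138 and 130, and U2AF2, which marks 3' splice sites, 101 and 101. MALAT1 and NEAT1 had larger log2 fold changes than 92.0% and 90.2% of the genes with at least 50 CPM, and the value of PSPC1 was above both.

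MEG3 (ENSG00000214548, chr14:100779410-100861031, plus strand), known to raise p53 activity when overexpressed, had 242 counts in the Nutlin-3 pool (interval 212 to 274) and 156 in the ethanol pool (132 to 182). Its level was 186 CPM against 116 CPM, and the intervals did not overlap. The ratio was 1.60-fold (1.30 to 1.97), or 0.68 on the log2 scale (0.38 to 0.98), larger than that of 99.6% of genes with at least 50 CPM. Its log2 fold change was 0.46 in large columns (0.13 to 0.81), 1.44 in small columns (0.81 to 2.15) and 0.21 under ERCC scaling, so that it was past 0.5 in the small columns but neither in the large columns nor on the ERCC scale.

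Among other RNAs of the DLK1-MEG3 locus on the same strand, MEG8, MEG9 and DLK1 had more counts with Nutlin-3 over all columns, and MIR493HG, which overlaps MEG3, had 2 counts in each pool. In small columns, where the log2 fold change of MEG3 was largest, those of MEG8, DLK1 and MEG9 were -0.22, -0.15 and 0.14. The value of DLK1 equals that of H19 in small columns, which had 4 and 5 counts and an interval from -2.52 to 2.03. Intervals of MEG8, DLK1 and MEG9 in small columns were not computed, so the signs of these values give no direction. MEG8, a noncoding RNA downstream of MEG3, had 74 and 56 counts, a log2 fold change of 0.45 (-0.07 to 0.98). MEG9, further downstream, had 47 and 14 counts, a log2 fold change of 1.76 (0.91 to 2.77) at a mean of 23.3 CPM. DLK1, the protein-coding gene of the locus that is expressed from the father's chromosome, had 109 and 86 counts, a log2 fold change of 0.39 (-0.03 to 0.81). Of these 3, only MEG9 had an interval clear of 0. RTL1, a paternally expressed gene of the locus, had 2 counts with Nutlin-3 and 0 with ethanol, which gives no usable ratio. On the ERCC scale the median of all genes stood at -0.47, and the values of MEG8 and DLK1 on the human scale are no larger than that shift. An antisense gene inside MEG3, ENSG00000258663, had 13 and 2 counts. Use of strand in counting is not given in the sources used here, so reads of MEG3 and of this gene cannot be told apart.

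H19 (ENSG00000130600, chr11:1995176-2001470, minus strand), a maternally expressed RNA that is the precursor of miR-675, had 95 counts with Nutlin-3 and 99 with ethanol. Its log2 fold change was -0.01 (-0.44 to 0.41), and the levels, 73.0 and 73.7 CPM, overlapped. IGF2, the growth factor gene that shares its imprinting control region, had 156 and 171 counts, a log2 fold change of -0.09 (-0.41 to 0.24). KCNQ1OT1 (ENSG00000269821, chr11:2608328-2699994, minus strand), which silences neighbouring genes on the father's chromosome, had 100 and 97 counts, a log2 fold change of 0.09 (-0.33 to 0.51). CDKN1C, a cell cycle inhibitor among the genes it silences, had 114 and 103 counts, a log2 fold change of 0.19 (-0.20 to 0.59). TSSC4, in the same domain, had 92 and 100 counts, and CD81, a membrane protein gene beside it, had 162 and 166. KCNQ1, the gene that KCNQ1OT1 crosses in antisense, had only 2 and 0 counts. On the human scale neither imprinted RNA of chromosome 11 nor its neighbours named here therefore differed between the pools beyond counting error. The intervals still hold ratios of up to 1.33-fold for H19 and 1.42-fold for KCNQ1OT1. On the ERCC scale H19 stood at -0.48 and KCNQ1OT1 at -0.38, where the median of all genes was -0.47.

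The 14 imprinted neighbours on the list comprised 11 measured genes, of which 7 passed the filter, with 1 raised, MEG9, 0 lowered and a median of 0.19, where 9.47% of all genes past the filter were raised and 7.5% lowered. No row was found for DIO3, INS and ASCL2.

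Of the 5 snoRNA hosts 0 were past the fold in either direction. GAS5 (ENSG00000234741, chr1:173863900-173868882, minus strand), known to build up when growth stops, had 279 counts with Nutlin-3 and 236 with ethanol. Its log2 fold change was 0.29 (0.03 to 0.54), and the interval was clear of 0. SNHG5 (ENSG00000203875, chr6:85660950-85678748, minus strand), host of SNORD50A and SNORD50B, had 201 and 171 counts, a log2 fold change of 0.28 (-0.02 to 0.58). SNHG8 (ENSG00000269893, chr4:118278709-118279823, plus strand) had 182 and 161 counts, a log2 fold change of 0.22 (-0.09 to 0.54). These 3 hosts were each higher in the Nutlin-3 pool on the human scale, with overlapping levels, and lower on the ERCC scale, at -0.18, -0.19 and -0.25. ZFAS1 (ENSG00000177410, chr20:49278178-49295738, plus strand), host of SNORD12, SNORD12B and SNORD12C, had 215 and 183 counts, a log2 fold change of 0.28 (-0.01 to 0.57). SNHG1 (ENSG00000255717, chr11:62851988-62855914, minus strand), host of SNORD25 to SNORD31 among others, had 252 and 293 counts, a log2 fold change of -0.17 (-0.42 to 0.08). On the ERCC scale ZFAS1 stood at -0.19, and SNHG1, at -0.64, was the only one of the 10 genes past the fold, where 44.2% of all genes were lowered on that scale and 3.48% raised. On the human scale SNHG1 was the lowest of the hosts, at 13.9% in the order of all genes with at least 50 CPM where the other 4 stood at 92.0% or higher. The hosts together held 0.0868% of human counts with Nutlin-3 (0.0818 to 0.0920) and 0.0778% with ethanol (0.0731 to 0.0827).

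The snoRNAs themselves were nearly out of view. RefSeq places 11 snoRNA genes within GAS5, 9 within SNHG1, 3 within ZFAS1, 2 within SNHG5 and 1 within SNHG8. Of these only SNORD12C had a row, with 1 count with Nutlin-3 and 3 with ethanol, so the counts of the hosts describe the host transcripts and not the guides that they release. Genes on the opposite strand share sequence with hosts, and the counting of such reads cannot be told apart. ZBTB37, which overlaps GAS5, had 120 and 107 counts, and GAS5-AS1 had 14 and 25. ZNFX1, which overlaps ZFAS1, had 70 and 74 counts. SLC3A2 starts 188 bases from SNHG1 and had 134 and 131 counts, and PRSS12 lies 215 bases from SNHG8 and had 86 and 79.

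Other noncoding snoRNA hosts gave 2 raised and 0 lowered of 20 past the filter, with 16 above 0 and a median of 0.11. Of all genes past the filter, 9.47% were raised and 7.5% lowered. The list also held SNORD3A, itself a snoRNA, with 70 and 66 counts, and RMRP, with 1 and 0. These are not hosts and are left out of the counts above. Of the 18 listed genes with at least 50 CPM, SNORD3A included, 1 was raised and 0 lowered. At that level 0.972% of all genes were raised and 1.01% lowered. SNHG29 had 366 counts with Nutlin-3 and 262 with ethanol, a log2 fold change of 0.53 (0.30 to 0.76), and SNHG4 had 13 and 9 counts, named after its value was seen. EPB41L4A-AS1, host of SNORA13, had 159 and 135 counts, while SNHG14, with 138 and 153, and SNHG20, with 120 and 129, were the lowest in log2 fold change. SNHG29 thus differed more than any of the 5 member hosts, whose median was 0.28. Protein-coding hosts gave 0 raised and 0 lowered of 25, with 17 above 0 and a median of 0.14. The elongation factor EEF2 had 306 counts with Nutlin-3 and 254 with ethanol, a log2 fold change of 0.31 (0.07 to 0.56). HSPA8, a chaperone, had 239 and 305 counts, a log2 fold change of -0.31 (-0.56 to -0.06), and RCC1, the exchange factor of Ran, had 105 and 126.

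The proteins that bind snoRNAs and those that degrade host exons lay near the median of all genes. Of 16 proteins of box C/D and H/ACA particles 0 were raised and 0 lowered, with a median of -0.03. ZNHIT3, an assembly factor, had 133 and 129 counts, DKC1, the pseudouridine synthase, 177 and 178, RUVBL1, an assembly ATPase, 142 and 163, and NOP10, a core H/ACA protein, 201 and 221. Of 16 factors of nonsense-mediated decay 0 were raised and 0 lowered, with a median of -0.03. Of all genes past the filter, 9.47% were raised and 7.5% lowered. At 50 CPM or more, where 15 and 14 of these proteins lay, those shares were 0.972% and 1.01%. UPF2 had 101 and 91 counts and the kinase SMG1 142 and 128, while NBAS had 103 and 117 and the exon junction protein EIF4A3 142 and 161. None of these 8 genes had an interval clear of 0.

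Long noncoding RNAs outside the 10 included larger differences. MIR34AHG, host of the p53-induced miR-34a, had 157 counts with Nutlin-3 and 60 with ethanol, a log2 fold change of 1.43 (1.00 to 1.89). PURPL, a p53-induced RNA, had 167 and 126 counts, a log2 fold change of 0.45 (0.11 to 0.80). NORAD, a cytoplasmic RNA that binds Pumilio proteins, had 173 and 204 counts, and DLEU2, host of miR-15a and miR-16, had 128 and 149. Of 15 RNAs on this list past the filter 1, MIR34AHG, was raised and 1, CYTOR with 19 and 28 counts, was lowered, with a median of 0.10, where 9.47% of all genes past the filter were raised and 7.5% lowered. MEG3 lay between PURPL and MIR34AHG in log2 fold change. No row was found for PANDAR and TP53COR1.

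**Figure D3:**
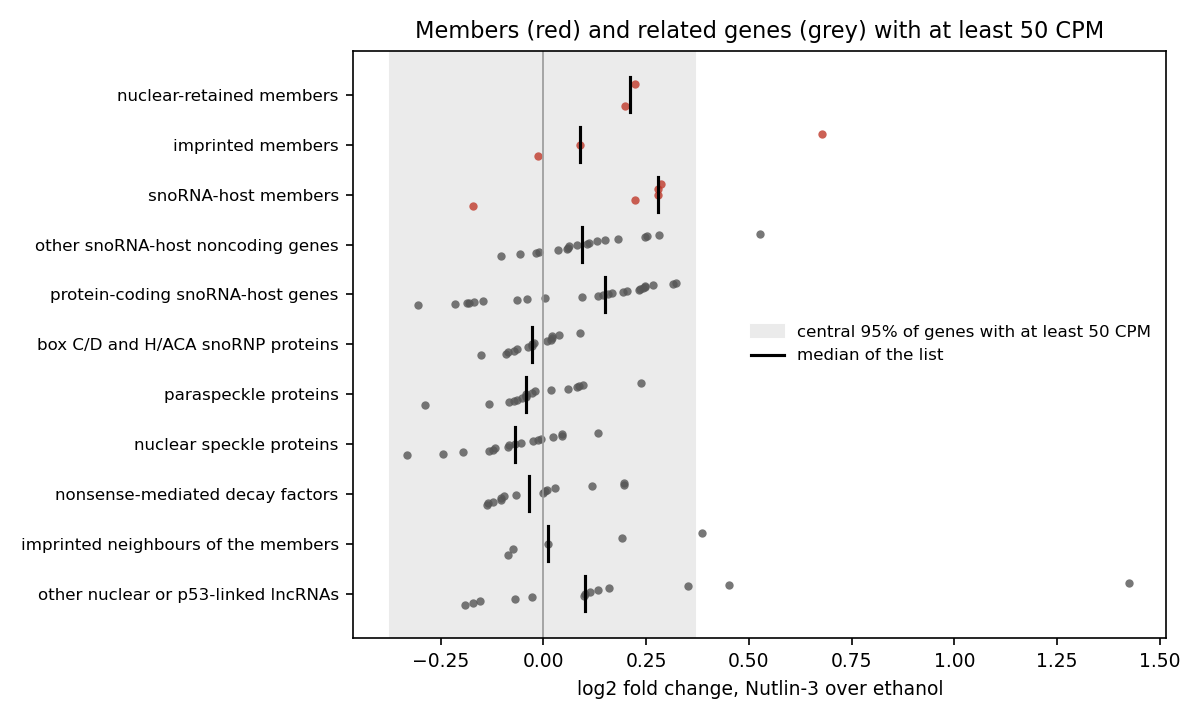
Log2 fold change between the pools, Nutlin-3 relative to ethanol (horizontal axis, scaled by human counts) for the long noncoding RNAs (red) and genes of related lists (grey), each point a gene with at least 50 CPM, with the median of these genes as a black bar and the central 95% of all genes at that level as the grey band. MEG3, SNHG29, DLK1, PURPL and MIR34AHG lie to the right of the band, the row of other noncoding hosts includes the snoRNA SNORD3A, and the speckle, paraspeckle, snoRNP and decay lists have medians just below 0.

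The size of each difference varied with the kind of column. In large columns, which hold most counts, 0 of the 10 genes were past the fold, where 9.17% of genes were raised and 7.15% lowered. In small columns 4 of the 8 genes past the filter there were raised, MEG3, SNHG5, ZFAS1 and SNHG8, where 18.7% of genes were raised and 17.7% lowered. MEG3 had 172 and 128 counts in large columns with Nutlin-3 and ethanol and 70 and 28 in small ones, the latter a log2 fold change of 1.44. SNHG5 had 50 and 33 counts in small columns, a log2 fold change of 0.73 (0.07 to 1.42), and 151 and 138 in large ones, 0.17. ZFAS1 had 62 and 43 counts in small columns, 0.66 (0.08 to 1.26), and 153 and 140 in large ones, 0.17. SNHG1 was lower with Nutlin-3 in both kinds, at -0.12 and -0.23, and MALAT1 higher in both, at 0.24 and 0.25. The difference between the kinds of column was not tested. The 31 columns per pool whose names did not recur in the other pool were all small and held few counts. There MEG3 had 16 counts with Nutlin-3 and 6 with ethanol, a log2 fold change of 1.19 (-0.17 to 2.90). MALAT1 had 22 and 16 counts in these columns, NEAT1 22 and 10, GAS5 19 and 8, and SNHG1 12 and 11. ZFAS1, with 6 and 8 counts (-0.54), and SNHG8, with 3 and 5 (-0.81), had the opposite sign to that in all small columns, while SNHG5 had 9 and 3. MEG3 was therefore also higher with Nutlin-3 among columns with unshared names, with an interval that holds 0.

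**Figure D4:**
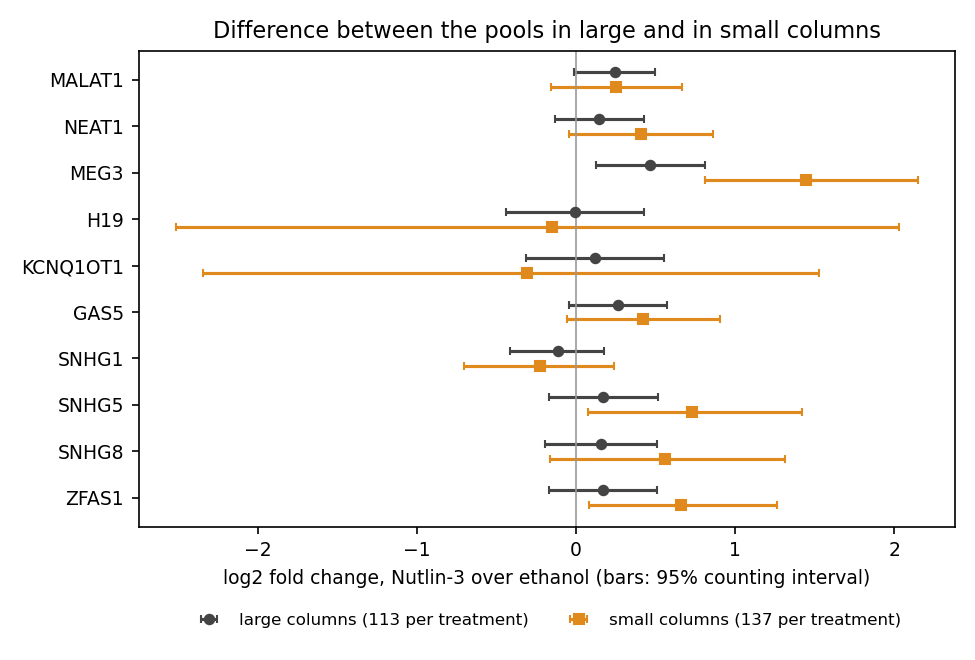
Log2 fold change between the pools, Nutlin-3 relative to ethanol (horizontal axis), for each long noncoding RNA in the 113 large columns per treatment (grey circles) and the 137 small columns (orange squares), with 95% counting intervals as bars. MEG3 is right of 0 in both kinds, with intervals that meet at 0.81, and H19 and KCNQ1OT1 have wide intervals in small columns, where they had 4 to 7 counts.

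The level of most of the 10 as a share of all counts was higher in small columns than in large ones. MALAT1 had 745 CPM in small and 238 CPM in large columns with Nutlin-3, a log2 ratio of large over small of -1.65, and 640 and 202 CPM with ethanol. The ratio was below 0 for 8 of the 10 genes in both pools, between -0.80 and -1.83. It was above 0 for H19 (1.30 with Nutlin-3 and 1.13 with ethanol) and KCNQ1OT1 (1.08 and 0.62), which had only 4 to 7 counts in small columns. The median over genes with at least 50 CPM was 0.38 with Nutlin-3 and 0.40 with ethanol. Genes with a total count like that of MALAT1 had a median ratio of -1.79 with Nutlin-3, and genes like H19 of 0.86, so the members' signs were those of genes of like abundance.

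Counts per column were low and even. In large columns with Nutlin-3, 8 of the 10 genes had at least 1 count in every one of the 113 columns, and 7 with ethanol. Of genes with at least 50 CPM, 11.8% and 16.6% did. H19 and KCNQ1OT1, exceptions in both pools, were the least abundant of the 10. The share among genes as abundant as the other 8 was not computed. MEG3 had exactly 1 count in 95 of the 113 large columns with ethanol and in 75 with Nutlin-3. It had 2 or more counts in 16 and in 38 of them, so the higher sum with Nutlin-3 in large columns came mostly from columns with more than 1 count. H19 had a count in 89 large columns with Nutlin-3 and 90 with ethanol, and KCNQ1OT1 in 91 and 84. MALAT1 reached 7 counts in a column with Nutlin-3 and 10 with ethanol, and SNHG1 reached 8 in both. In small columns MEG3 had a count in 69 of 137 with Nutlin-3 (50.4%) and in 28 of 137 with ethanol (20.4%).

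The variance of the counts over large columns was below their mean for all 10 genes. The ratio of variance to mean ran from 0.212 for SNHG8 to 0.709 for MALAT1 with Nutlin-3, and from 0.150 for MEG3 to 0.960 for MALAT1 with ethanol. Independent counting gives a ratio near 1, so the counting intervals above need not describe the error of these sums. Whether the table holds unaltered molecule counts is not stated in the sources used here, and the levels and fold changes carry the same limit as the intervals. Other genes showed the same: 555 genes with a mean like that of MEG3 with Nutlin-3 had a median ratio of 0.262, below the 0.459 of MEG3, and 4977 such genes with ethanol had 0.127.

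**Figure D5:**
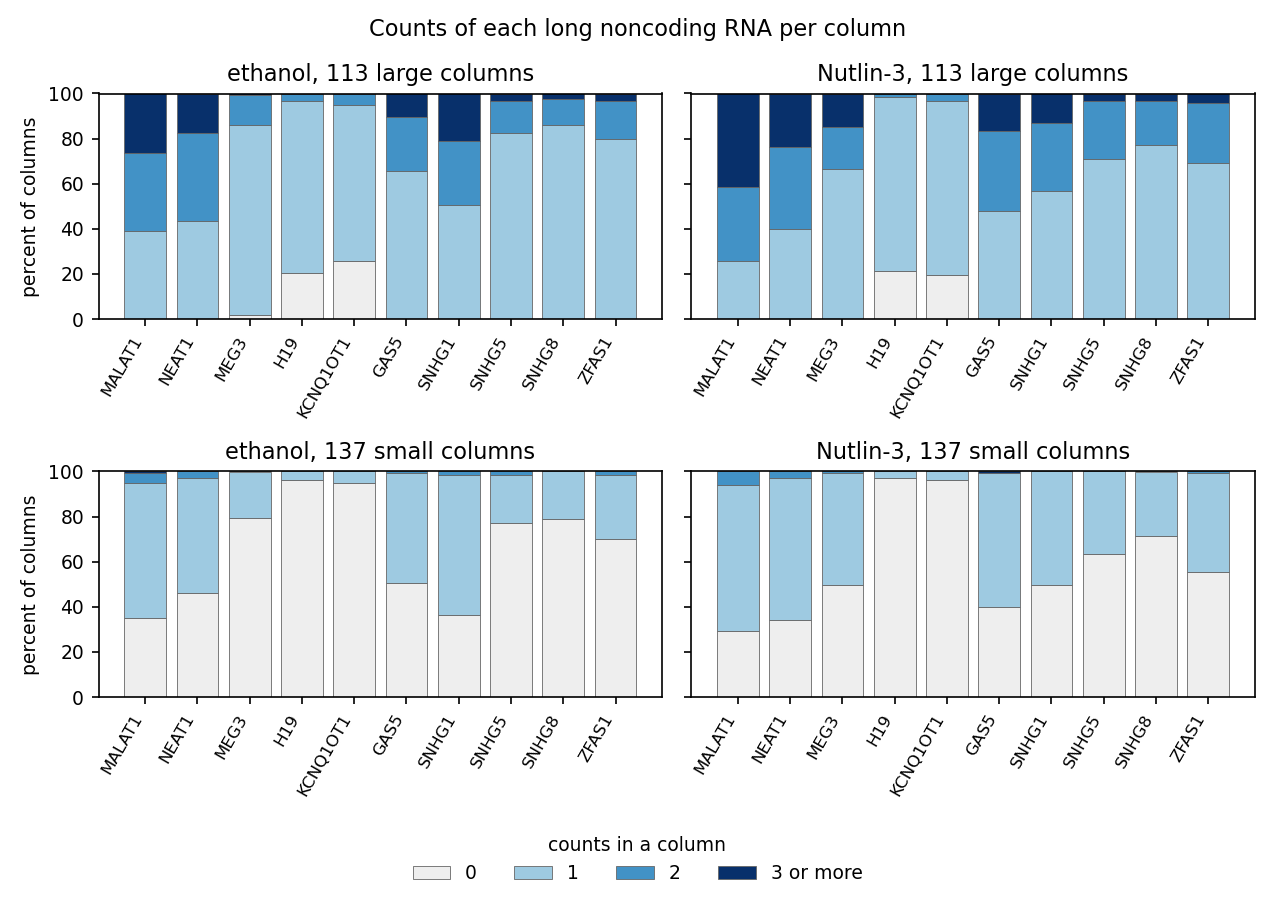
Percent of columns (vertical axis, 0 to 100) with 0, 1, 2 and 3 or more counts of each long noncoding RNA, in the 113 large columns (top) and 137 small columns (bottom) of the ethanol (left) and Nutlin-3 (right) pools. In large columns nearly every bar except those of H19 and KCNQ1OT1 starts at 1 count, and MEG3 shows more columns with 2 or more counts with Nutlin-3, 38 against 16.

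To compare columns at an equal depth, each was thinned to 700 counts and shallower ones were left out, which kept 187 columns with Nutlin-3 and 194 with ethanol. MEG3 was then seen in 41 of 187 columns with Nutlin-3 (21.9%, exact binomial interval 16.2 to 28.5) and 13 of 194 with ethanol (6.70%, 3.62 to 11.2). Before thinning the shares were 72.8% and 55.6%. Columns of a pool are not replicates, so these intervals describe the columns counted and not the treatments. Thinned to 350 counts, MEG3 was seen in 15.6% of columns with Nutlin-3 (11.2 to 20.9) and 7.88% with ethanol (4.81 to 12.0). Within the large columns thinned to 700 counts its shares were 11.5% and 2.65%, and within the small ones 37.8% and 12.3%. SNHG1 was seen in 20.9% of thinned columns with Nutlin-3 (15.3 to 27.4) and 30.4% with ethanol (24.0 to 37.4), against 72.8% and 80.0% before thinning. MALAT1 was seen in 25.1% and 19.1% of thinned columns, GAS5 in 24.1% and 16.5%, and NEAT1 in 24.6% and 25.3%. Unthinned, these shares were 84.0% and 80.8% for MALAT1, 78.0% and 72.4% for GAS5, and 81.2% and 74.8% for NEAT1. No cell type that should lack these RNAs was in the sample, and the part of free RNA in the droplets was not tested.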

How the data were processed

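The authors deposited a table of whole-number counts per gene and column for NGP cells, in whose columns the treatment but not the library is named. Per the labels' protocols, cDNA was made on the ddSeq device and polyA+ libraries with the SureCell WTA 3' kit. For the aligner, molecular tags, build, annotation and cell filter, the method is not given in the sources used here. Columns named treated were taken as Nutlin-3 and those named untreated as ethanol, and 0 columns were left without a treatment. Doublets were neither called nor removed here.

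Counts were summed per treatment without the 62 ERCC rows and scaled by TMM (edgeR 4.0.16, R 4.3.3). The filter on low counts, with a minimum of 10, kept 14830 genes. Log2 fold changes had 0.5 counts added to each sum. Their 95% intervals are exact binomial and those of sums exact Poisson (scipy 1.17.1), and all cover counting error only. With 1 pool per treatment no test was run, and a gene was called raised or lowered at 0.5 on the log2 scale. Symbols, positions and transcripts came from GENCODE release 29, which matched 25422 gene rows and need not be the authors' annotation, and promoters from RefSeq.

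The 10 genes and all gene lists were chosen with earlier results of these data known. Named genes were the members, CDKN1A and MDM2, genes next to a member, and per list the highest and lowest 2 log2 fold changes at 50 CPM or more, some of which are not reported here. The limit of 4000 counts for large columns was set after column totals had been seen. Alternatives were DESeq2 1.42.0 size factors, total or ERCC scaling, column subsets, equal column weights, other added counts, folds, filters and thinning depths. The scripts were tested on simulated data.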

Additional observations from a re-analysis of the deposited data

How the results depend on the processing

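No paired analysis was possible because each treatment was 1 pool, whose columns bear no replicate number. Of 90 log2 fold changes of single genes over 9 settings, 64 moved by less than their counting interval and 26 moved further, and 12 changed sign, 7 of them under ERCC scaling. The number of genes raised, 1 as reported, was 0 under ERCC scaling (3.48% of all genes past the filter), 0 in large columns (9.17%), 4 of 8 in small columns (18.7%), 3 of 5 in columns whose name occurred in 1 pool (14.7%), 4 with columns weighted equally (18.3%) and 4 at a log2 fold of 0.25 (6.5% of all genes with at least 50 CPM). The number lowered, 0 as reported, was 1 under ERCC scaling, which lowered 44.2% of all genes. The median log2 fold change, 0.22 as reported, reversed to -0.25 under ERCC scaling, and was 0.49 in small columns, 0.94 in columns with unshared names and 0.41 with equal weights. The summed share of the 10 genes with Nutlin-3 and with ethanol was 0.145% and 0.129% in large columns, 0.413% and 0.315% in small columns, 0.481% and 0.338% in columns with unshared names, and 0.324% and 0.248% with equal weights. The median share of columns with a count, 18.7% with Nutlin-3 and 11.9% with ethanol at 700 counts, was 71.2% and 59.6% without thinning, and with Nutlin-3 10.2% at 350 counts, 8.85% in large and 33.1% in small columns. The median ratio of variance to mean, 0.338 and 0.298 in large columns, was 0.697 and 0.696 over all columns. The other settings kept these results within their limits, and the causes of the shifts were not tested. Depth limits H19 and KCNQ1OT1 most, with 95 to 100 counts per pool.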
